A study of Mus musculus with 6 samples.

Results

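Fatty acid oxidation genes were followed across 3 treatments of mouse esophageal organoids, which are small epithelial structures grown in culture. The set holds 39 genes of the 52636 in the deposited table, taken by gene symbol. They encode enzymes of mitochondrial and peroxisomal fatty acid oxidation, proteins of fatty acid uptake and binding, and acyl-CoA thioesterases. All 39 symbols were found, and 38 reached the level needed for a test, which was 1 CPM (the read count scaled to a common library total) in at least 2 of the 6 libraries.

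All organoids came from mice of genotype Krt5CreER:RosaSmoM2, called K5:Smo, in which tamoxifen makes cells that use the Krt5 promoter produce SmoM2, a constantly active variant of Smoothened in the Hedgehog pathway. Esophagi were taken 5 days after tamoxifen and cells were kept 13 days in culture. The ibuprofen group received TGFb1 (1 ng/ml), BMP4 (20 ng/ml) and ibuprofen (500 µM), the ligand group received TGFb1 and BMP4 at the same doses, and the inhibitor group received A8301 (500 nM), a blocker of the TGFb receptor. Treatment lasted 72 h and was renewed every 24 h, and each group had 2 libraries. The labels give no age of the mice, no group without ligands and inhibitor, no group with ibuprofen alone, and no statement on whether A8301 was still present with the ligands. What TGFb1 did, what BMP4 did and what the lack of A8301 did therefore cannot be told apart. Separate cultures or mice for the 2 libraries of each group are not stated, so p-values measure the spread between these libraries, which may be technical.

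Depth, recovered from the deposited values, was 6413873 to 7730582 reads per library, so that 1 read was worth 0.129 to 0.156 CPM. The labelled cell type, esophageal epithelium, was checked on 7 squamous epithelial markers, whose summed level was 12100 to 12900 CPM in the ibuprofen group, 14700 to 18300 CPM in the ligand group and 15900 to 18400 CPM in the inhibitor group. Of those markers the esophageal keratin Krt4 fell by 7.59 on the log2 scale with ibuprofen added to the ligands, and the basal keratin Krt14 differed by 0.03. The 7 did not move together, with changes from −7.59 to 1.91. At an adjusted p under 0.05 in limma, 1 was higher (14.3%, against 11.4% of all genes) and 2 were lower (28.6%, against 8.49%). The summed level of 5 fibroblast markers was 1420 to 1760 CPM, 1710 to 2560 CPM and 153 to 209 CPM in the same order of groups. All 5 of these rose with the ligands over the inhibitor (100%, against 20.3% of all genes). With ibuprofen over the ligands 1 of the 5 rose (20%, against 11.4% of all genes) and 0 fell in limma (against 8.49%). Cytosolic ribosomal protein genes took 1.67% to 1.80% of the total in the ibuprofen group, 1.25% in both ligand libraries and 2.40% to 2.60% in the inhibitor group. The part of these shifts in the results below was not tested.

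Fatty acids that enter a cell are carried by binding proteins and joined to coenzyme A by acyl-CoA synthetases. Long chains cross into mitochondria as carnitine esters, where they are shortened in repeated rounds of dehydrogenation, hydration, a second dehydrogenation and thiolysis, while the electrons pass through the electron transfer flavoprotein. Unsaturated chains need extra isomerases and reductases, and the oxidation of very long or branched chains begins in peroxisomes. In squamous epithelium fatty acids also serve the lipid barrier, and many genes of oxidation are known targets of the PPAR nuclear receptors.

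Promoter sequences are shown for members with a RefSeq window whose levels moved most or in pairs, because these can be compared in sequence. They are the 250 bases before the annotated start, 5′ to 3′ in the direction of the gene, from RefSeq on GRCm38.p6. Capitals mark the GC box CCGCCC on either strand.
Acsl3 promoter (chr1:78657575-78657824, plus strand): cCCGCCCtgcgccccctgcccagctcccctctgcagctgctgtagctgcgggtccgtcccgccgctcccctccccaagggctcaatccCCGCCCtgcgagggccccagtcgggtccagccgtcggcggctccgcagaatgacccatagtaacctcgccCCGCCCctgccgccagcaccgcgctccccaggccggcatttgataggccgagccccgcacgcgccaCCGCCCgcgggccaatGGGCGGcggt
Eci2 promoter (chr13:34994145-34994394, minus strand): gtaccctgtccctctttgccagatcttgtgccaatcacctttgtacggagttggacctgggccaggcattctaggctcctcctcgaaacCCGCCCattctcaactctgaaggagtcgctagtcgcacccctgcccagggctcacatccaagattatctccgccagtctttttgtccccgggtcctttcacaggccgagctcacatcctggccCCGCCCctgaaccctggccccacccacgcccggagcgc
Acot1 promoter (chr12:84009252-84009501, plus strand): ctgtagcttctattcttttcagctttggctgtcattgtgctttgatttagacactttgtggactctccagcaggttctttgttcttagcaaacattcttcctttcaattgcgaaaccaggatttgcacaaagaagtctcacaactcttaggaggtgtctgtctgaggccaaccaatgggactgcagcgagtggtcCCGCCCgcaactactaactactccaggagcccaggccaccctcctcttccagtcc
Acot2 promoter (chr12:83987611-83987860, plus strand): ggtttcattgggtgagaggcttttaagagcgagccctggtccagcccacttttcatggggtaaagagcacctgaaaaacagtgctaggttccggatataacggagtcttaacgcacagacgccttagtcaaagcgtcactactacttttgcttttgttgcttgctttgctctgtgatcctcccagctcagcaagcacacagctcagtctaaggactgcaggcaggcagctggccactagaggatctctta
Acox2 promoter (chr14:8259020-8259269, minus strand): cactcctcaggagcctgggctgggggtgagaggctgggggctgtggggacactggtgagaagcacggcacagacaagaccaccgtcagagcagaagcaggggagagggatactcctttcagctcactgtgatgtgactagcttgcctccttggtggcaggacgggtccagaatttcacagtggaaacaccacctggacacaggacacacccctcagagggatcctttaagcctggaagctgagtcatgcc
Hadha promoter (chr5:30154981-30155230, minus strand): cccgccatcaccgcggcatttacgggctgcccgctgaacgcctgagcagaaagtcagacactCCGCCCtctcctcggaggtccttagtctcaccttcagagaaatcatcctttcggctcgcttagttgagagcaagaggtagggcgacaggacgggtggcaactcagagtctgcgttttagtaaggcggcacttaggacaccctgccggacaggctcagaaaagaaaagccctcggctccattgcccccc

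The Hadha stretch largely overlaps that of Hadhb, the gene of its partner subunit. Their RefSeq starts lie at 30154980 on the minus strand and 30155253 on the plus strand of chromosome 5, with 272 bases between them. Gene locations given below come from GENCODE, whose starts differ, at 30155162 for Hadha and 30155248 for Hadhb. By those locations the printed Eci2 and Acox2 stretches lie inside their genes, and the Hadha and Acot1 stretches lie partly inside. RefSeq windows of 300 bases, 50 of them after the start, were at hand for 32 of the 39 members and gave 34 windows. There was none for Fabp4, Fabp5, Crat, Acaa2, Decr1, Hsd17b4 and Vnn1. The GC box occurred on either strand in 25 of the 34 member windows (73.5%), against 35.7% of all 32851 windows. The printed Acsl3 promoter holds 5 of them, and the printed Acot2 and Acox2 stretches hold none. The PPAR direct repeat, a form of the site that PPAR binds with RXR, is AGGNCA, any 1 base and AGGNCA again. It occurred on either strand in 0 member windows, against 0.381% of all windows. At a share this low, 34 windows are too few to show a lack of the repeat. Its single unit AGGTCA, which the longer motif can contain, occurred in 4 member windows (11.8%; Acadm, Acadvl, Cd36 and Echs1), against 16.3% of all windows. These matches describe letters in these windows only. The set of all windows was not matched to the members in expression or in content of G and C.

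With ibuprofen added to the ligands, members rose at uptake and binding (3 of 3), activation (3 of 4), the carnitine shuttle (2 of 4), hydration to thiolysis (4 of 5), electron transfer (2 of 3), unsaturated chains (3 of 5) and thioesterases (2 of 3). Among the acyl-CoA dehydrogenases 1 of 5 rose and 1 fell. Of the 6 tested members grouped as peroxisomal, 0 were called in limma. Eci2, Decr2 and Crot also act in peroxisomes but were grouped by other roles, and of these Eci2 rose. Of the 38 tested members, 20 rose (52.6%), against 11.4% of all 18241 tested genes. The members were chosen with earlier results of these data known, and all genes were not matched to them in expression. These shares are therefore a description only. A single member, Acadm, fell (2.63%), against 8.49% of all genes, and 17 did not pass. In either direction 19.9% of all genes were called. Both ibuprofen libraries were above both ligand libraries for 23 members, against 24.2% of all genes, and below them for 3, against 34.5% of all genes. The median change over the 38 was 0.54 on the log2 scale, against 0.00684 over all genes tested. Cd36 and Fabp4 are among the 20 and the 23, but they reached the level for a test only through the ibuprofen libraries. Without them 18 of 36 rose (50%), the median change was 0.52, and only Fabp5 remained at uptake and binding. Changes are log2 differences of TMM-scaled CPM plus 1 from limma, with moderated standard errors (SE) and Benjamini-Hochberg adjusted p, and TMM is a trimmed-mean scaling between libraries. Without TMM scaling 16 members rose and 2 fell, and the share of higher genes among all calls was 43.2%, against 57.3% with it. The members not called there were Acads, Echs1, Acaa2 and Etfb (adjusted p 0.0502 to 0.0679). With no filter on low values 13 rose and 0 fell in limma, and Cd36, Fabp4, Fabp5, Slc25a20, Acads, Acaa2, Etfb and Acadm were not called (adjusted p 0.0506 to 0.0919). The calls of Cd36, Fabp4, Slc25a20, Acads, Echs1, Hadhb, Acaa2, Etfb and Acadm also depended on single libraries, as given below. Whether fewer cells of a type or less RNA per cell lies behind a bulk difference cannot be told apart.

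With the ligands over the inhibitor, members were called in both directions, the higher ones at a share near that of all genes. Of the 38, 9 rose (23.7%), against 20.3% of all genes, 13 fell (34.2%), against 20% of all genes, and 16 did not pass. In either direction 40.3% of all genes were called. Both ligand libraries were above both inhibitor libraries for 13 members, against 35.5% of all genes, and below them for 19, against 36.6% of all genes. With no filter on low values Etfa, Eci1 and Ehhadh were not called (adjusted p 0.0612 to 0.0698). The median change was −0.12, against −0.00555 over all genes. In the ibuprofen group over the inhibitor group, 21 members were higher (55.3%), against 21.4% of all genes, and 5 were lower (13.2%), against 19.2% of all genes. In either direction 40.6% of all genes were called. The libraries were apart upwards for 22 members, against 30.9% of all genes, and downwards for 11, against 41.5% of all genes. Without Cd36 and Fabp4, 19 of 36 were higher (52.8%). The median over the 38 in this comparison was 0.52, or 0.46 without Cd36 and Fabp4, against −0.00974 over all genes. The 3 comparisons share libraries, so they are not independent. In summed CPM, the 39 members had 2844 and 3197 in the ibuprofen group, 1733 and 1783 in the ligand group, and 2865 and 2820 in the inhibitor group. Fabp5 alone supplied 597 and 981, 369 and 429, and 1353 and 1276 CPM of these sums, in the same order of libraries.

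**Figure D1:**
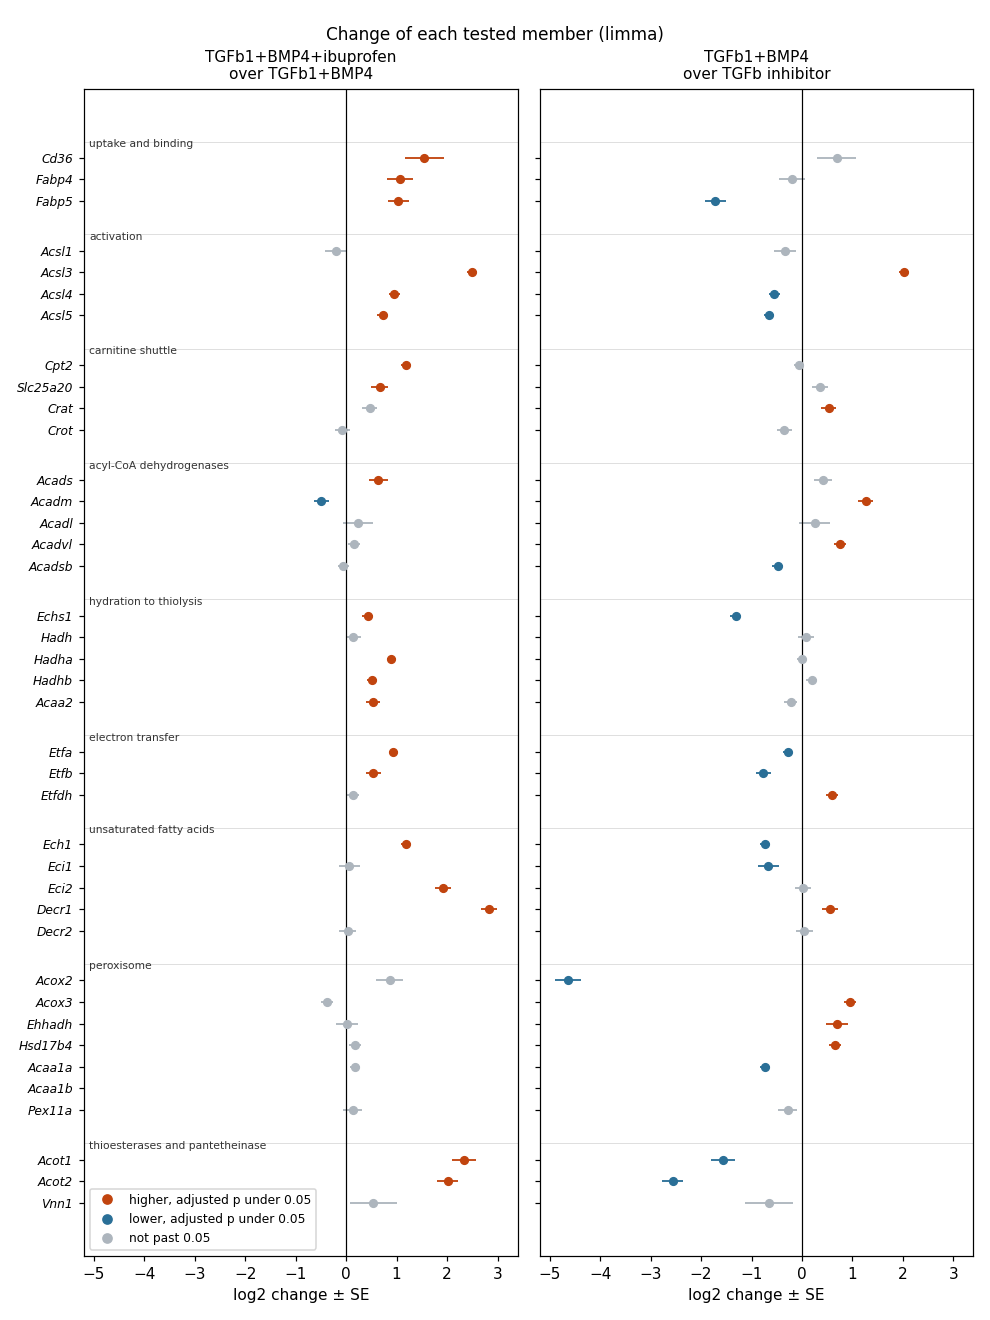
Change of each tested member on the log2 scale (x axis) with its SE, by role, for the ibuprofen group over the ligand group (left) and the ligand group over the inhibitor group (right). Colour marks members past an adjusted p of 0.05. On the left 20 are higher and Acadm lower, and on the right 9 are higher and 13 lower. Acaa1b was not tested and has no point.

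**Figure D2:**
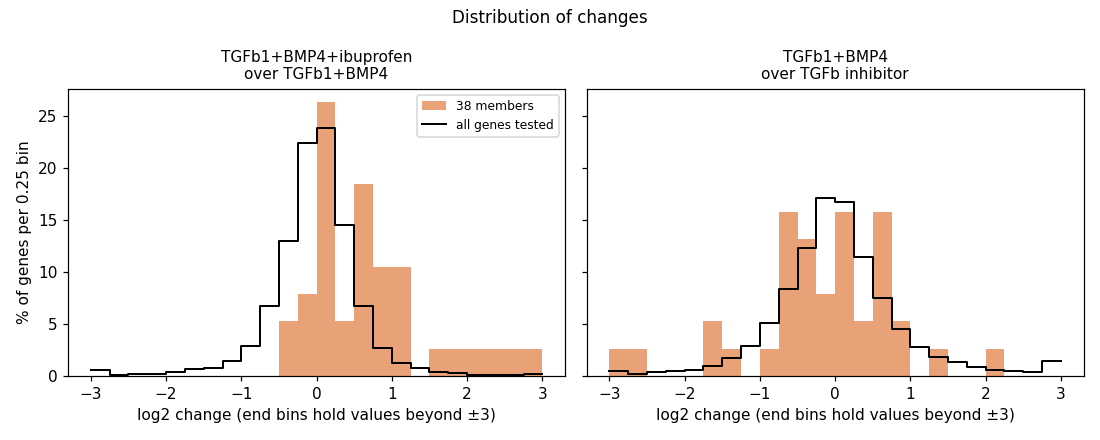
Percent of the 38 tested members (bars) and of all 18241 tested genes (line) in each bin of log2 change, bin width 0.25. For the ibuprofen group over the ligand group (left), the bin from 0.50 to 0.75 held 18.4% of members and 6.72% of all genes. For the ligand group over the inhibitor group (right), members lie on both sides of 0.

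Among the genes of uptake and binding, Fabp5, the epidermal fatty acid binding protein, was the most abundant member per kilobase of exon in every group, at 221 CPM per kb in the ibuprofen group, 112 in the ligand group and 369 in the inhibitor group. Its level was 597 and 981 CPM in the ibuprofen libraries, 369 and 429 CPM in the ligand libraries, and 1353 and 1276 CPM in the inhibitor libraries. The groups did not overlap, and the ibuprofen libraries lay between the others and were far apart from each other. Fabp5 rose by 1.03 with ibuprofen over the ligands (SE 0.21, adjusted p = 0.0106) and fell by 1.72 with the ligands over the inhibitor (adjusted p = 0.000365). Without ibuprofen replicate 2 the rise was 0.65. The lower level with ibuprofen than with the inhibitor (−0.68, adjusted p = 0.0302) was no longer called without either inhibitor library (adjusted p = 0.115 and 0.0881) or without ibuprofen replicate 1 (−0.30, adjusted p = 0.0911), and was −1.07 without ibuprofen replicate 2.

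Cd36, a fatty acid translocase of the cell surface, and Fabp4, the adipocyte fatty acid binding protein, were near the detection limit. Cd36 had 17 and 37 reads in the ibuprofen libraries, 2 and 9 in the ligand libraries, and 0 and 1 in the inhibitor libraries. The ratio of depth-scaled reads was 5.11 for the ibuprofen group over the ligand group (exact 95% interval 2.64 to 10.8) and 60.9 over the inhibitor group (10.5 to 2450). Fabp4 had 14 and 13 reads, 2 and 5 reads, and 4 and 7 reads in the same order of groups. All ibuprofen libraries were above all others for both genes, but at these read numbers the intervals are wide and cover counting error only. The call of Cd36 over the ligands (1.55, adjusted p = 0.0256) ended without ligand replicate 1 (adjusted p = 0.116) or ibuprofen replicate 2 (0.128), with a pseudocount of 0.1 (0.0704) and in voom on recovered reads (0.0549), and that of Fabp4 (1.07, adjusted p = 0.021) without ligand replicate 1 (0.106). Of cell types known for these genes, all 6 adipocyte markers were under 1 CPM in every library, with Lep, Cidec and Retn at 0 in all of them. The summed level of 6 endothelial markers was 6.35 to 8.70 CPM in the ibuprofen group, 6.25 to 10.7 CPM in the ligand group and 3.85 to 4.90 CPM in the inhibitor group. That of 6 macrophage and leukocyte markers was 41.7 to 70.1, 26.2 to 63.4 and 57.2 to 71.1 CPM, above the levels of Cd36 and Fabp4, and its members did not move together. Cd68 had 18.8 and 15.0 CPM in the ibuprofen group, 7.5 and 8.3 CPM in the ligand group, and 49.1 and 50.8 CPM in the inhibitor group. It rose by 1.09 with ibuprofen over the ligands (adjusted p = 0.00154) and fell by 2.51 with the ligands over the inhibitor (adjusted p = 7.83e-06). Lyz2 had 16.9 and 44.3 CPM, 11.5 and 38.4 CPM, and 2.90 and 10.1 CPM in the same order, and it was higher with ibuprofen than with the inhibitor by 2.20 (adjusted p = 0.026). Mrc1 had 1.05 and 4.85 CPM, 2.75 and 10.4 CPM, and 0.30 and 3.90 CPM, and passed in no comparison. Replicate 2 was above replicate 1 in all 3 groups for Lyz2 and Mrc1. It was so for Cd36 too, whose inhibitor libraries had only 0 and 1 read. In the ibuprofen group this order did not hold for Cd68 or for Fabp4. Of the other macrophage and leukocyte markers, Csf1r lay between 4.30 and 6.00 CPM, and Ptprc and Adgre1 were under 1 CPM in every library. The part of these cells in the levels of Cd36 and Fabp4 was not tested.

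Of the 4 acyl-CoA synthetases, 3 rose with ibuprofen, and Acsl3 had the highest CPM of the 4 in the ibuprofen group and the lowest in the inhibitor group. Acsl3 (chromosome 1, 78657825 to 78707743, GRCm38), a synthetase of the endoplasmic reticulum and lipid droplets, had 511 and 453 CPM in the ibuprofen libraries, 94.7 and 85.0 CPM in the ligand libraries, and 21.9 and 20.7 CPM in the inhibitor libraries. The groups stood in 3 separate steps, with replicates close together. It rose by 2.5 with ibuprofen (SE 0.10, adjusted p = 2.36e-05), which is 5.66-fold on this scale. With the ligands over the inhibitor it had risen by 2.03 (SE 0.10, adjusted p = 4.58e-06). Per kilobase of exon it had rank 2 among the 39 members in the ibuprofen group (111 CPM per kb), at rank 5 in the ligand group (20.6) and at rank 23 in the inhibitor group (4.89). Exons of Utp14b on the same strand cover 5.6% of its exon bases, so a small part of its reads could belong to that gene.

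Acsl4, a synthetase that prefers polyunsaturated chains such as arachidonic acid, had 152 and 137 CPM in the ibuprofen group, 70.9 and 87.8 CPM in the ligand group, and 111 and 122 CPM in the inhibitor group. Acsl5, a synthetase found on mitochondria, had 88.7 and 84.8 CPM, 58.5 and 53.0 CPM, and 89.7 and 86.5 CPM in the same order. Both were lowest in the ligand group. Acsl4 rose by 0.95 with ibuprofen (SE 0.11, adjusted p = 0.000838) and fell by 0.55 with the ligands (adjusted p = 0.00495), the second call ending without inhibitor replicate 2 (adjusted p = 0.0518). Acsl5 rose by 0.72 with ibuprofen (SE 0.10, adjusted p = 0.00174) and fell by 0.65 with the ligands (adjusted p = 0.00116). In the ibuprofen group Acsl5 was 0.07 from the inhibitor group (SE 0.10, adjusted p = 0.602). Acsl1, the main synthetase of liver and muscle, had 35.2 and 61.6 CPM with ibuprofen, 57.5 and 56.5 CPM with the ligands, and 74.3 and 70.6 CPM with the inhibitor. Its ibuprofen libraries lay on both sides of the ligand libraries, and the change was −0.20 (SE 0.22, adjusted p = 0.6). Without ibuprofen replicate 2 it was −0.61 (adjusted p = 0.0167).

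In the carnitine shuttle, Cpt2 and Slc25a20 rose with ibuprofen. Cpt2, the inner-membrane enzyme that returns acyl groups to coenzyme A, had 68.3 and 64.1 CPM in the ibuprofen group, 30.5 and 30.6 CPM in the ligand group, and 31.1 and 32.3 CPM in the inhibitor group. Both ibuprofen libraries were above the other 4, which lay close together. The rise over the ligands was 1.18 (SE 0.10, adjusted p = 0.000224), while the ligands over the inhibitor gave −0.05 (SE 0.10, adjusted p = 0.749). Slc25a20, the carnitine-acylcarnitine translocase, had 25.9 and 27.3 CPM, 18.9 and 16.2 CPM, and 15.1 and 12.3 CPM in the same order of groups. Its rise of 0.66 with ibuprofen (SE 0.16, adjusted p = 0.0225) ended without ligand replicate 2, ibuprofen replicate 1 or ibuprofen replicate 2 (0.51 to 0.72, adjusted p 0.0764 to 0.121). Crat, the carnitine acetyltransferase, had 45.2 and 34.5 CPM, 30.1 CPM in both ligand libraries, and 19.2 and 22.1 CPM. It rose with the ligands by 0.53 (SE 0.15, adjusted p = 0.0201), a call that ended without inhibitor replicate 1 or either ligand library (adjusted p 0.0543 to 0.132). With ibuprofen its change was 0.47 (adjusted p = 0.0555), and without ibuprofen replicate 2 it was 0.64 (adjusted p = 0.0373). Crot, the peroxisomal carnitine octanoyltransferase, changed by −0.08 with ibuprofen (adjusted p = 0.756). Its change with the ligands was −0.35 (adjusted p = 0.105), or −0.60 without ligand replicate 1 (adjusted p = 0.00547).

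The rate-controlling entry enzyme Cpt1a, which is not in the set, had 175 and 166 CPM in the ibuprofen group, 96.3 and 75.6 CPM in the ligand group, and 44.2 and 43.6 CPM in the inhibitor group. It rose in both steps, by 1.08 with ibuprofen (SE 0.13, adjusted p = 0.000932) and by 0.95 with the ligands (adjusted p = 0.000636). The muscle form Cpt1b, at a mean of 6.10 CPM with ibuprofen, 4.85 CPM with the ligands and 3.72 CPM with the inhibitor, changed by 0.38 with ibuprofen (adjusted p = 0.381).

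The acyl-CoA dehydrogenases, which make the first double bond, differed among themselves. Acads, for short chains, had 16.6 and 17.0 CPM in the ibuprofen group, 12.3 and 9.99 CPM in the ligand group, and 8.24 and 7.90 CPM in the inhibitor group. It rose by 0.64 with ibuprofen (SE 0.18, adjusted p = 0.035), but the call ended when any library except ligand replicate 1 was left out (0.46 to 0.68, adjusted p 0.063 to 0.189). Acadm, for medium chains, had 22.2 and 21.8 CPM, 30.8 and 36.1 CPM, and 12.2 and 14.7 CPM in the same order. The ligand libraries were the highest and the ibuprofen libraries lay between. Acadm fell by 0.49 with ibuprofen (SE 0.14, adjusted p = 0.0451), and this call ended without either ligand library or either ibuprofen library (−0.57 to −0.43, adjusted p 0.0726 to 0.187). Its rise with the ligands was 1.26 (SE 0.14, adjusted p = 0.000256), called with each library left out. Acadvl, for very long chains, had 39.0 and 38.2 CPM, 39.3 and 34.3 CPM, and 20.7 and 22.1 CPM. It rose by 0.76 with the ligands (SE 0.12, adjusted p = 0.00173) and changed by 0.16 with ibuprofen (SE 0.12, adjusted p = 0.425). Exons of Dvl2 on the opposite strand cover 42.9% of the Acadvl exon bases, and no source used here says whether counting used strand, so reads of these genes may be mixed.

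Acadl, for long chains, had 104 and 150.2 CPM in the ibuprofen libraries, 90.3 and 143 CPM in the ligand libraries, and 71.3 and 128 CPM in the inhibitor libraries. Replicate 2 was above replicate 1 in all 3 groups, by ratios of 1.45, 1.58 and 1.80, and this spread was larger than any difference between groups. Among the libraries of each replicate number, the ibuprofen library was the highest and the inhibitor library the lowest. None of its 3 comparisons passed (SE 0.30 each) in the fit without the replicate number as a term. With that term in limma, ibuprofen over the inhibitor was called (0.48, adjusted p = 0.0041) and the others were not. Whether the numbers pair the libraries is not settled. Acadsb, for short branched chains, had 28.0 and 27.0 CPM, 28.7 and 32.6 CPM, and 41.5 and 45.1 CPM. It fell by 0.48 with the ligands over the inhibitor (SE 0.11, adjusted p = 0.00995) and changed by −0.06 with ibuprofen (adjusted p = 0.761). The fall was not called without inhibitor replicate 2 or ligand replicate 1 (−0.40 and −0.42, adjusted p = 0.0916 and 0.0548).

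**Figure D3:**
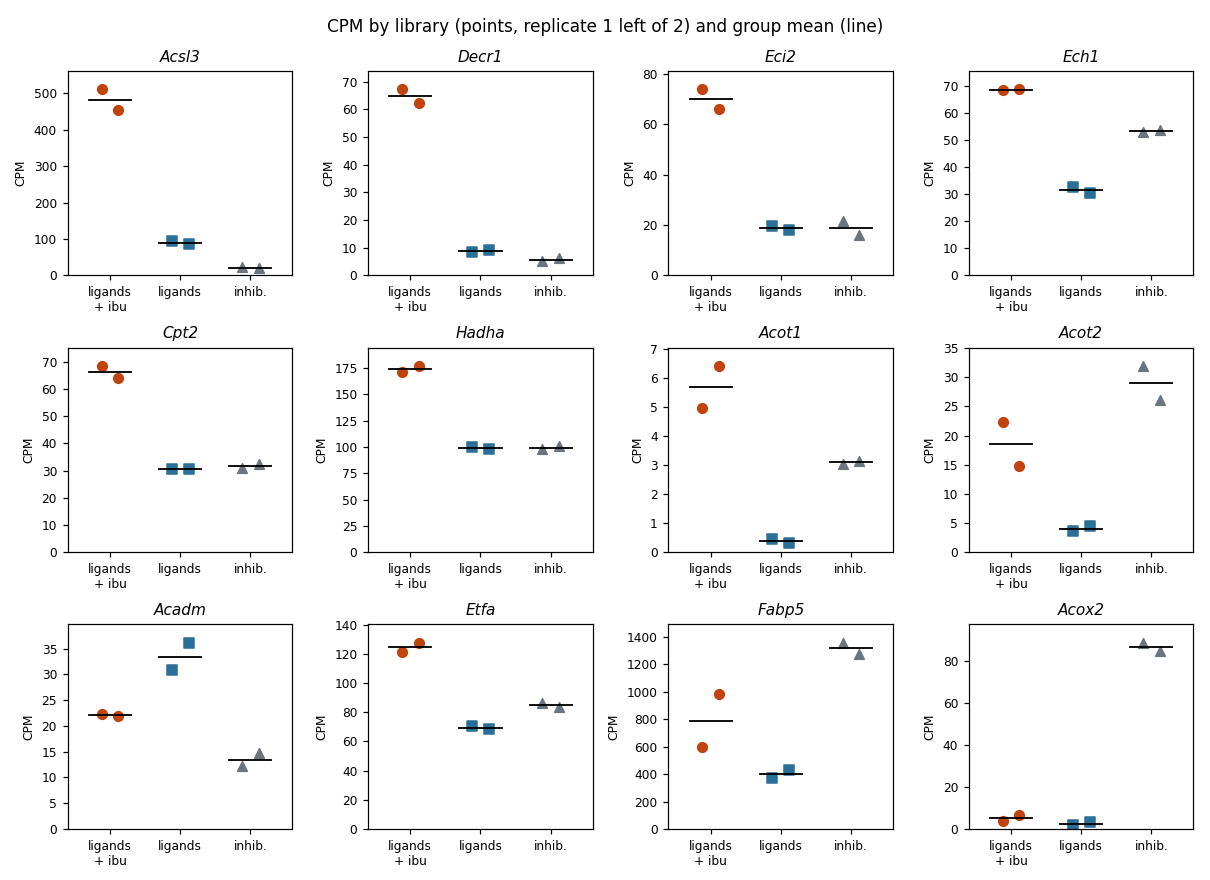
Level in CPM of 12 members in each library, with replicate 1 left of replicate 2 and a line at the group mean. The groups are the ibuprofen group (ligands + ibu), the ligand group (ligands) and the inhibitor group (inhib.), and each y axis starts at 0. Acsl3, Decr1 and Eci2 are highest with ibuprofen, Acadm is highest with the ligands, and Fabp5 and Acox2 are highest with the inhibitor.

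The hydration, second dehydrogenation and thiolysis steps rose with ibuprofen in 4 of 5 members. Hadha (chromosome 5, 30118304 to 30155162), the alpha subunit of the trifunctional protein that carries these steps for long chains, had 171 and 177 CPM in the ibuprofen group, 100.1 and 98.4 CPM in the ligand group, and 97.9 and 101 CPM in the inhibitor group. The ligand and inhibitor libraries overlapped, and both ibuprofen libraries were well above them. Hadha rose by 0.89 with ibuprofen (SE 0.09, adjusted p = 0.000395). Hadhb (chromosome 5, 30155248 to 30184593), the beta subunit read from the opposite strand of the stretch printed above, had 96.2 and 100.2 CPM, 76.0 and 70.0 CPM, and 64.5 and 63.9 CPM. It rose by 0.51 with ibuprofen (SE 0.10, adjusted p = 0.00822), or by 0.41 without ligand replicate 2 (adjusted p = 0.0538). Neither subunit passed with the ligands over the inhibitor.

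Echs1, the short-chain enoyl-CoA hydratase, had 39.4 and 33.8 CPM in the ibuprofen group, 28.2 and 29.0 CPM in the ligand group, and 74.4 and 70.9 CPM in the inhibitor group. It fell by 1.31 with the ligands (SE 0.11, adjusted p = 4.37e-05) and stayed below the inhibitor group with ibuprofen by −0.88 (adjusted p = 0.000354). The rise of 0.43 with ibuprofen over the ligands (SE 0.11, adjusted p = 0.0247) ended when any library except ibuprofen replicate 2 was left out (0.35 to 0.44, adjusted p 0.0609 to 0.134). Acaa2, the mitochondrial thiolase, had 30.5 and 29.5 CPM, 21.9 and 21.6 CPM, and 28.3 and 23.3 CPM. Its rise of 0.53 (SE 0.13, adjusted p = 0.0245) ended without either ligand or either ibuprofen library (0.48 to 0.57, adjusted p 0.0569 to 0.106). Hadh, the short-chain hydroxyacyl-CoA dehydrogenase, lay between 48.1 and 61.32 CPM in all 6 libraries and passed in no comparison.

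In electron transfer, both subunits of the flavoprotein were called higher with ibuprofen, but Etfb only in some of the fits. Etfa, the alpha subunit, had 122 and 127 CPM in the ibuprofen group, 70.4 and 68.2 CPM in the ligand group, and 86.0 and 83.8 CPM in the inhibitor group. It rose by 0.93 (SE 0.09, adjusted p = 0.00041). Its small fall with the ligands, by 0.28 (adjusted p = 0.0368), ended without either inhibitor or either ligand library (adjusted p 0.0564 to 0.153). Etfb, the beta subunit, had 25.1 and 31.2 CPM, 19.6 and 20.9 CPM, and 32.7 and 38.4 CPM. It fell by 0.77 with the ligands (SE 0.15, adjusted p = 0.00412), and its rise of 0.54 with ibuprofen (adjusted p = 0.0394) ended when any library except ibuprofen replicate 1 was left out (0.36 to 0.53, adjusted p 0.0608 to 0.19). In voom on recovered reads the Etfb rise was 0.55 and was not called (adjusted p = 0.0562). A predicted gene on the same strand covers 58.2% of the Etfb exon bases, so the reads of Etfb are uncertain. Etfdh, the membrane dehydrogenase that passes the electrons to ubiquinone, had 53.4 and 58.2 CPM, 56.8 and 50.7 CPM, and 36.1 and 34.7 CPM. It rose by 0.59 with the ligands (SE 0.12, adjusted p = 0.00419) and changed by 0.14 with ibuprofen (adjusted p = 0.436).

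The enzymes for unsaturated chains included Decr1, the member with the greatest fitted rise with ibuprofen. Decr1 (chromosome 4, 15917240 to 15945507), the mitochondrial dienoyl-CoA reductase, had 67.2 and 62.4 CPM in the ibuprofen libraries, 8.60 and 8.99 CPM in the ligand libraries, and 5.10 and 6.35 CPM in the inhibitor libraries. Both ibuprofen libraries were far above the other 4. It rose by 2.83 (SE 0.16, adjusted p = 3.2e-05), 7.13-fold on this scale, and its rank per kilobase among the 39 was 13 with ibuprofen, 30 with the ligands and 33 with the inhibitor. Its rise of 0.55 with the ligands (adjusted p = 0.0218) ended without inhibitor replicate 1 or either ligand library (0.41 to 0.56, adjusted p 0.0621 to 0.129).

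Eci2 (chromosome 13, 34977748 to 35027096), an enoyl-CoA isomerase of peroxisomes and mitochondria, had 73.9 and 66.0 CPM with ibuprofen, 19.8 and 18.0 CPM with the ligands, and 21.8 and 16.0 CPM with the inhibitor. The ligand libraries lay within the range of the inhibitor libraries. Eci2 rose by 1.92 with ibuprofen (SE 0.16, adjusted p = 0.00018) and changed by 0.02 with the ligands (SE 0.16, adjusted p = 0.944). Ech1, a dienoyl-CoA isomerase, had 68.6 and 68.9 CPM, 32.8 and 30.4 CPM, and 53.2 and 53.9 CPM. It fell by 0.74 with the ligands (SE 0.10, adjusted p = 0.000731) and rose by 1.19 with ibuprofen over them (adjusted p = 0.000226). The ibuprofen group stood 0.45 above the inhibitor group (adjusted p = 0.00867), or 0.41 without inhibitor replicate 1 (adjusted p = 0.0683). Eci1, the mitochondrial isomerase, did not follow Eci2 in its values. It had 5.10 and 4.70 CPM, 4.20 and 5.80 CPM, and 9.20 and 7.80 CPM, with a change of 0.06 under ibuprofen (SE 0.21, adjusted p = 0.869). Its fall of 0.67 with the ligands (adjusted p = 0.0372) ended without either inhibitor library or ligand replicate 1 (−0.75 to −0.50, adjusted p 0.0905 to 0.188). Decr2, the peroxisomal reductase, lay between 17.2 and 22.3 CPM in all libraries, and its changes of 0.03 to 0.08 did not pass.

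Of the 6 tested members grouped as peroxisomal, 0 were called with ibuprofen over the ligands in limma, against 19.9% of all genes. In voom on recovered reads 0 were called as well. At that share of all genes, 6 members are too few to show a lack of change. At an unadjusted p under 0.05 Acox2 was higher and Acox3 lower. Eci2, which rose, and Decr2 and Crot, which did not pass, also act in peroxisomes and are given above. Acox2 (chromosome 14, 8225511 to 8259353), the oxidase of branched chains and bile acid intermediates, had 3.80 and 6.54 CPM in the ibuprofen group, 1.90 and 3.20 CPM in the ligand group, and 88.8 and 84.9 CPM in the inhibitor group. The inhibitor libraries were far above all others, and per kilobase Acox2 ranked 35, 34 and 6 in the same order of groups. It fell by 4.64 with the ligands (SE 0.26, adjusted p = 6.82e-06), and in reads the ligand group was at 0.029 of the inhibitor group (exact 95% interval 0.0201 to 0.0406). Its change with ibuprofen over the ligands, 0.86 (SE 0.26), had an adjusted p of 0.0503. Without ligand replicate 2 or ibuprofen replicate 1 it was 1.09 and 1.21 (adjusted p = 0.0414 and 0.0258). With pseudocounts of 0.5 and 0.1 it was 0.97 and 1.08 (adjusted p = 0.0468 and 0.0483), and with a filter at 5 CPM the adjusted p was 0.0497. Its lower level in the ibuprofen group than in the inhibitor group was −3.78 (adjusted p = 1.86e-05).

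The remaining members of the peroxisomal group differed less. Acox3, another branched-chain oxidase, had 26.0 and 23.5 CPM with ibuprofen, 34.8 and 34.2 CPM with the ligands, and 18.2 and 16.7 CPM with the inhibitor. It rose by 0.95 with the ligands (SE 0.12, adjusted p = 0.00049) and changed by −0.38 with ibuprofen (adjusted p = 0.0639), which was called with a filter at 5 CPM (adjusted p = 0.0498) and without TMM scaling (−0.46, adjusted p = 0.0348). Hsd17b4, the D-bifunctional enzyme, rose by 0.66 with the ligands (SE 0.12, adjusted p = 0.00269), with 55.0 and 48.0 CPM, 49.0 and 48.2 CPM, and 33.1 and 28.2 CPM in the 3 groups. Ehhadh, the L-bifunctional enzyme, had 2.75 to 5.90 CPM over the 6 libraries, and its rise of 0.70 with the ligands (adjusted p = 0.0326) ended without either inhibitor library or ligand replicate 1 (0.55 to 0.75, adjusted p 0.0969 to 0.169). Acaa1a, a peroxisomal thiolase, fell by 0.74 with the ligands (SE 0.10, adjusted p = 0.000527) and had 46.9 and 42.6 CPM, 41.1 and 43.6 CPM, and 70.6 and 72.3 CPM. Its near copy Acaa1b was under the level for a test, with 3 reads in the ibuprofen group, 6 in the ligand group and 8 in the inhibitor group. Of the 50-base words in Acaa1b transcripts, 30.5% also occur in Acaa1a, so the split of reads between them is uncertain. Pex11a, a factor of peroxisome division, lay between 6.55 and 8.90 CPM and passed in no comparison.

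The thioesterases Acot1 and Acot2, which release free fatty acids from coenzyme A, fell with the ligands and rose with ibuprofen. Acot1, the cytosolic form, had 4.95 and 6.40 CPM in the ibuprofen group, 0.45 and 0.30 CPM in the ligand group, and 3.05 and 3.15 CPM in the inhibitor group. In reads these were 34 and 41, 3 and 2, and 22 and 24. The ratio of depth-scaled reads was 15.6 for the ibuprofen group over the ligand group (exact 95% interval 6.4 to 49.5), and the log2 change was 2.33 (SE 0.24, adjusted p = 0.00048). Acot2, the mitochondrial form, had 22.2 and 14.8 CPM, 3.60 and 4.50 CPM, and 31.9 and 26.1 CPM. It rose by 2.01 with ibuprofen (SE 0.21, adjusted p = 0.000526) and fell by 2.56 with the ligands (adjusted p = 4.39e-05). For Acot1 the fall with the ligands was 1.56 (adjusted p = 0.0012). The genes lie next to each other on chromosome 12 (83987861 to 83993873 for Acot2 and 84009490 to 84018371 for Acot1), and 24.5% of the 50-base words of Acot2 also occur in Acot1, so reads of one may be counted for the other. The ibuprofen group was above the inhibitor group for Acot1 by 0.77 (adjusted p = 0.0309), a call that ended without either inhibitor library or ibuprofen replicate 2 (adjusted p 0.111 to 0.155). For Acot2 it was −0.55 (adjusted p = 0.0672), and without ibuprofen replicate 1 it was −0.80 (adjusted p = 0.0327). Vnn1, a pantetheinase that frees a building block of coenzyme A, had 3.65 and 0.799 CPM, 1.90 and 0.45 CPM, and 1.95 and 2.60 CPM and passed in no comparison. It rests on 16 to 34 reads per group.

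**Figure D4:**
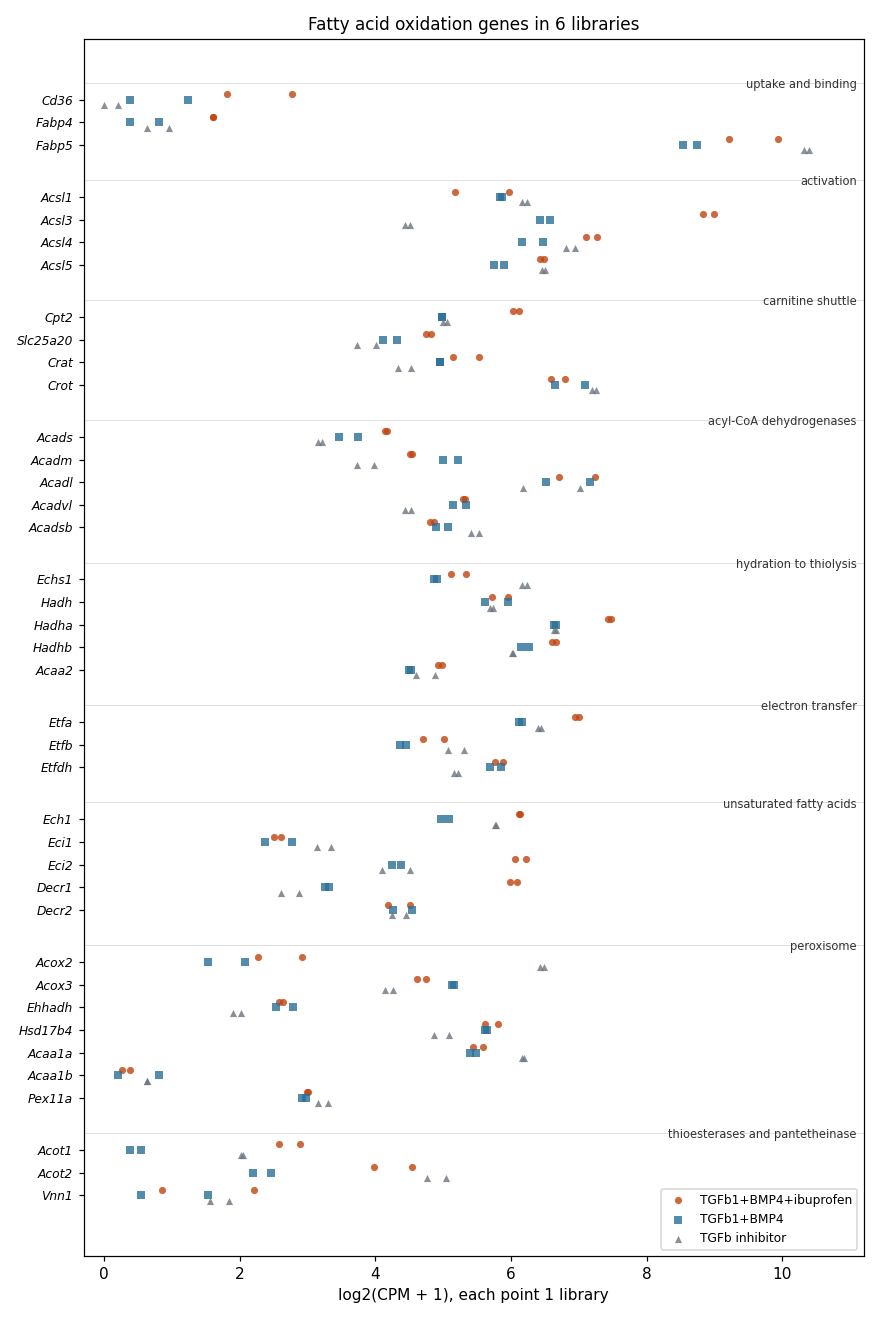
Level of all 39 members as log2(CPM + 1) on the x axis, each point 1 library, by role and coloured by group. Fabp5 is the rightmost gene, the 3 groups of Acsl3 stand apart, and the inhibitor libraries of Acox2 lie far to the right of the other 4.

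In the ibuprofen group over the inhibitor group, 15 of the 21 higher members kept their call with each library left out and in every other alternative run, among them Acsl3 (4.53), Decr1 (3.39), Eci2 (1.94), Cpt2 (1.13), Acads (1.06), Slc25a20 (1.01), Crat (1.00), Hadha (0.90) and Etfa (0.64). Acsl3 was thus 23.1-fold higher and Decr1 10.4-fold higher on this scale. Cd36 is among the 15, but it reached the level for a test only through the ibuprofen libraries. With a filter at 5 CPM Cd36 was not tested, so its call was not checked there. Of the 5 lower members, Echs1, Acox2 and Acaa1a (−0.57) kept theirs. The calls of Fabp4 (0.87) ended without either inhibitor library (adjusted p = 0.173 and 0.0574), of Acsl4 (0.41) without inhibitor replicate 1 or ibuprofen replicate 1 (0.154 and 0.098), and of Acox3 (0.57) and Acadsb (−0.54) without inhibitor replicate 2 (0.0506 and 0.0523). That of Ehhadh (0.72) ended without either inhibitor or either ibuprofen library (adjusted p 0.087 to 0.128). Crot (−0.43) and Eci1 (−0.60), which were not called, were called without either ligand library (adjusted p 0.00683 to 0.0486). Acsl1 (−0.53, adjusted p = 0.0918) was called without ibuprofen replicate 2 (−0.95, adjusted p = 0.00133). With no filter on low values Fabp4, Fabp5, Acsl4, Ehhadh and Acot1 were not called (adjusted p 0.0507 to 0.0974), and without TMM scaling Acsl1, Crot, Eci1 and Acot2 were called lower (adjusted p 0.0201 to 0.0475), while Acsl4 was not (0.0689).

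Other genes of the pathway were read from 6 lists. Whether a call held in the alternative fits was followed for members only, so the calls of these other genes were not checked that way. Among 13 tested genes of transport and activation, 3 rose and 1 fell with ibuprofen over the ligands (23.1% and 7.69%, against 11.4% and 8.49% of all genes). The very long chain synthetase Acsbg1 rose by 1.96 (adjusted p = 2.84e-05), to 363 and 309 CPM in the ibuprofen group, against 90.7 and 91.5 CPM in the ligand group, and the fatty acid transport protein Slc27a4 fell by 0.57 (adjusted p = 0.0192). With the ligands over the inhibitor, 5 of the 13 rose (38.5%, against 20.3% of all genes). Among 17 tested genes of mitochondrial side pathways, 3 rose (17.6%) and 2 fell (11.8%) with ibuprofen over the ligands. Those that rose were the thioesterases Acot7 (2.05), Acot9 (0.52) and Acot13 (0.90). Of 20 other peroxisomal genes, 2 rose (10%, near the 11.4% of all genes) and 0 fell in limma (1 was lower at an unadjusted p under 0.05). Those that rose were catalase, Cat (0.54, adjusted p = 0.0172), and the thioesterase Acot4 (1.05, adjusted p = 0.0177). Of 4 tested ketone body genes, 0 rose in limma (0 also at an unadjusted p under 0.05) and 2 fell, the ketone-using transferase Oxct1 (−1.03, adjusted p = 0.000736) and Bdh1 (−0.59, adjusted p = 0.0374).

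Of the 6 other lists, lipid droplet supply had the highest median change with ibuprofen over the ligands, 0.50. Of its 10 tested genes, 5 rose (50%, against 11.4% of all genes) and 1 fell (10%, against 8.49%). Plin2, a lipid droplet coat protein, had 1240 and 1060 CPM in the ibuprofen group, 142 and 120 CPM in the ligand group, and 59.5 and 56.1 CPM in the inhibitor group. It rose by 3.22 with ibuprofen (SE 0.12, adjusted p = 1.25e-05) and by 1.17 with the ligands (adjusted p = 0.000116). Hilpda, an inhibitor of triglyceride lipase, rose by 1.77 (adjusted p = 0.00138), and the hormone-sensitive lipase Lipe by 1.11 (adjusted p = 0.000773). Of 15 tested regulators, 2 rose and 2 fell (13.3% each, near the shares of all genes). The receptor Ppard rose by 0.47 with ibuprofen (SE 0.10, adjusted p = 0.0141), at 150 ± 5.28 CPM with ibuprofen, 115 ± 3.43 CPM with the ligands and 227 ± 25.1 CPM with the inhibitor (SD, n = 2 each). Pparg fell by 1.06 (SE 0.31, adjusted p = 0.0422), and the coactivator Ppargc1a fell by 1.46 (SE 0.33, adjusted p = 0.0168). Their SEs were larger than that of Ppard, and these calls were not followed in the alternative fits. Acaca, the first enzyme of fatty acid synthesis, rose by 0.43 (adjusted p = 0.0131). Ppara lay between 0 and 0.7 CPM and was not tested.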

How the data were processed

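RNA was measured in 6 libraries (Ovation Solo kit, NovaSeq), per the labels' protocols. STAR 2.5.3a, Cell Ranger 3.1.0, HTSeq, edgeR and GRCm38 are named in the submitters' processing notes, without their settings. Per library, the deposited table gives a signal scaled by the authors to about the same total and rounded to whole numbers, and the authors' CPM, which were used for all values. It also holds the authors' log2 fold changes, a p-value and FDR per gene with no comparison named, and a variance, all deposited and not used here.

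Reads were recovered from the regular grid of the scaled signal, each value within 0.211 of a whole read, and used for depth, intervals and an added voom fit. CPM were divided by TMM factors (trims of 30% and 5%) and taken as log2 after adding 1. Genes with 1 CPM in at least 2 libraries were kept (18241). The model, from limma 3.58.1 in R 4.3.3, held a term for each group and used all 6 libraries, which left 3 residual degrees of freedom. It had an intensity trend and 2-sided tests, with p adjusted by Benjamini-Hochberg over all genes tested at a threshold of 0.05. It was tested on simulated data. Tests with edgeR and DESeq2 on recovered reads were not run, because the recovery did not meet the condition set for them. The voom fit, the exact intervals and the read numbers given rest on the same recovery and share this doubt. Exact intervals are at 95% and, since PCR copies are not independent molecules, cover counting error only. Locations and exon lengths come from GENCODE vM21 on GRCm38.

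The members, gene lists and motifs were chosen with earlier results of these data known. Named beside the members are fixed genes of the pathway (some are not reported here) and, from each other list, up to 3 genes with the smallest adjusted p for ibuprofen over the ligands.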

Additional observations from a re-analysis of the deposited data

How the results depend on the processing

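With 2 libraries per group, the number of calls depends on each library. Left out in turn, the 6 libraries gave 1738 to 2896 genes called for ibuprofen over the ligands (3628 with all), 4703 to 7336 for the ligands over the inhibitor (7347) and 4697 to 7516 for ibuprofen over the inhibitor (7413). The lowest values came without ibuprofen replicate 1 in the first and without inhibitor replicate 1 in the other two. Members called higher were 15 to 17, 6 to 9 and 16 to 21 in the same order, and members called lower 0 to 1, 9 to 14 and 3 to 7. The 0 came without either ligand library or without ibuprofen replicate 1, where Acadm missed the limma threshold. With no filter on low values ibuprofen over the ligands gave 2355 genes, 13 members higher and 0 lower, where more genes were tested. A filter at 5 CPM and the deposited CPM without TMM factors each gave 2 members lower there, and without TMM factors 9 were lower for ibuprofen over the inhibitor. The cause was not tested. Pseudocounts of 0.5 and 0.1, RLE factors and a voom fit on recovered reads (the voom fit chosen after seeing the data) kept each count of calls within 1.5 times. Tests with edgeR and DESeq2 on recovered reads were planned and not run.

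The replicate number as a block gave 4385, 7957 and 7999 genes and 22, 9 and 22 members higher, with 1, 14 and 7 lower. Same-numbered libraries deviated together at correlations of 0.256, 0.19 and 0.174, and with only 2 numbers the pairing is not settled. Under the block Acox2 and Crat were called for ibuprofen over the ligands (adjusted p = 0.0155 and 0.0443), Acadl (0.48, adjusted p = 0.0041), Crot (−0.43, 0.0145) and Acot2 (−0.55, 0.0466) for ibuprofen over the inhibitor, and Crot for the ligands over the inhibitor (−0.35, 0.0366).

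Sign changes concerned only members that were not called. For the ligands over the inhibitor, left-out fits spanned −0.40 to 0 for Fabp4, −0.08 to 0 for Cpt2, −0.17 to 0.69 for Acadl, −0.12 to 0.29 for Hadh, −0.03 to 0.05 for Hadha, −0.17 to 0.22 for Eci2 and −0.06 to 0.17 for Decr2, and Hadha was 0 without TMM factors. For ibuprofen over the ligands they spanned −0.61 to 0.22 for Acsl1, −0.36 to 0.17 for Crot, −0.07 to 0.51 for Acadl, −0.08 to 0.34 for Hadh, −0.11 to 0.22 for Eci1, −0.15 to 0.21 for Decr2, −0.14 to 0.17 for Ehhadh and −0.14 to 1.23 for Vnn1. Without TMM factors Eci1 was −0.01, Decr2 −0.06 and Ehhadh −0.05. For ibuprofen over the inhibitor they spanned −0.10 to 0.27 for Decr2 and −0.80 to 0.57 for Vnn1, and without TMM factors Acsl5 was −0.02 and Decr2 −0.01. At these depths Cd36, Fabp4, Acaa1b and the ligand libraries of Acot1 rest on few reads.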
